A study of Homo sapiens with 12 samples.

Results

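The RNA that control IgG pulled out of MDA-MB-231 lysates was compared between irradiated and untreated cells. This comparison takes the 6 IgG arrays of the 12 in the study, 3 from cells lysed 6 h after an X-ray dose of 2 Gy (irradiated IgG) and 3 from untreated cells (untreated IgG), chosen by their titles, with 22215 non-control probe sets on each. The other 6 arrays hold RNA precipitated with an antibody to eIF4E, a translation factor that docks on the messenger cap, from irradiated and untreated cells. MDA-MB-231 is an established human triple-negative breast cancer line of mesenchymal character that carries mutant p53. All groups came from this 1 line grown in the same serum-containing medium. The design text calls the replicates biological, but nothing says whether they came from separate cultures, so p-values measure the spread between these arrays only.

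In an RNA immunoprecipitation, IgG that recognises no cellular target collects RNA that sticks to beads, antibody or tube, and this background is what the specific antibody is measured against. Ionising radiation breaks DNA. The kinases ATM, ATR and DNA-PK sense the breaks, checkpoint kinases halt the cycle, and where p53 works it induces genes such as CDKN1A and MDM2. Whether the IgG background differed after irradiation is the question of the comparison.

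Each value is an array signal, scaled by the authors so that every array has the same trimmed mean, and gives an amount relative to the rest of its array. Marker genes on the IgG arrays were compatible with the labelled line but cannot identify it. Signals of its mesenchymal markers were 16732 to 27305 for VIM, an intermediate filament protein, and 17468 to 24192 for CAV1, a coat protein of caveolae. Of genes that luminal breast cells express, ESR1, PGR and CDH1 stayed at or under 60.5, while ERBB2 was at 180 to 420.0 and EPCAM at 533 to 679. In all, 14 of the 24 luminal genes with a probe set passed the filter described below, with a summed signal over the 24 of 14302 to 20425 on untreated and 13812 to 24043 on irradiated arrays. Liver, leukocyte and neuron or muscle genes (70 with a probe set) had a median signal of 13.6 to 35.8 per array, which marks the background level. The summed signal of neuron or muscle genes (25 with a probe set, 4 of them bright enough to be tested) was 3676 to 4405 on untreated and 2635 to 3141 on irradiated IgG arrays. Most of that sum was MBP, at 2951 to 3618 and 2193 to 2542.

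One array stood apart from the other 5. Over the 7178 genes tested, irradiated IgG replicate 1 lay at a root mean square log2 distance of 0.512 to 0.600 from each other IgG array, whereas the 10 pairs without it lay at 0.383 to 0.471. Distances within a treatment (median 0.471, 6 pairs) were no smaller than distances between treatments (median 0.441, 9 pairs). Without this array the medians were 0.439 within and 0.405 between treatments.

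**Figure D1:**
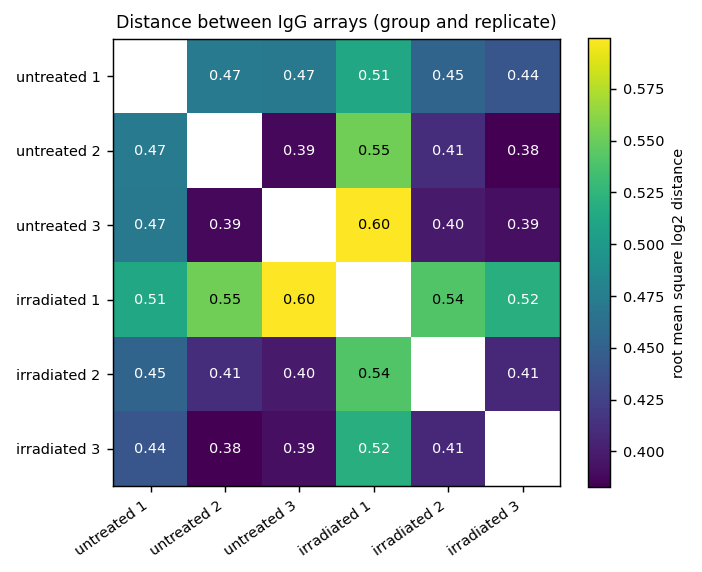
Root mean square log2 distance between each pair of the 6 IgG arrays over 7178 genes, with arrays named by treatment and replicate. The row of irradiated replicate 1 holds 0.51 to 0.60, and the remaining pairs hold 0.38 to 0.47 whether they share a treatment or not.

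Control probe sets overlapped between the treatments. Alu repeats, abundant in introns and unprocessed nuclear RNA, gave signals of 47854, 46234 and 37960 in untreated and 53246, 42865 and 36876 in irradiated IgG replicates 1 to 3, with equal geometric means (1.00-fold). Actin's 3'/5' signal ratio, a measure that grows with degraded or incompletely copied RNA, was 3.55, 4.65 and 2.96 untreated and 5.38, 5.00 and 3.29 irradiated (1.22-fold; exact permutation test, two-sided, p = 0.4). The same ratio of GAPDH was 2.03 to 2.60 and 2.23 to 2.78 (1.12-fold, exact p = 0.3). Poly-A, hybridization and 18S control signals gave 0.809-fold, 1.04-fold and 0.809-fold (exact p = 0.5, 0.9 and 0.7), all 6 measures had an adjusted p of 1, and 3 arrays against 3 allow no p under 0.1. The ratio of the hybridization controls bioB and bioC was 0.373 and 0.380 in replicate 1 of both treatments and 0.0395 to 0.0490 in the other 4 IgG arrays.

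No gene differed between irradiated and untreated IgG precipitates at an adjusted p of 0.05. Of 11963 genes represented by a probe set, 7178 passed a filter on dim signals (a mean log2 signal at or above the 40th percentile) and 0 of them (0%) passed limma, whose smallest adjusted p was 0.983. At an unadjusted p under 0.05 there were 275 genes (3.83%), 185 higher (2.58%) and 90 lower (1.25%) after irradiation. The 3 irradiated arrays did not overlap the 3 untreated ones in 641 genes (8.93%), higher in 330 (4.6%) and lower in 311 (4.33%). Of all differences, 3630 (50.6%) were above 0. Between the 5th and 95th percentile of genes they ran from -0.38 to 0.46 on the log2 scale, and 21 genes (0.293%) differed at least 2-fold.

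The arrays bounded most changes without excluding small ones. The 95% interval of the difference had a median half-width of 0.47 (log2), and in 6257 genes (87.2%) it lay wholly inside a 2-fold change in either direction. In the other 921 genes a 2-fold change was within the interval. Without irradiated replicate 1 there were still 0 genes past the threshold, and 187 at an unadjusted p under 0.05, of which 107 were higher and 80 lower.

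Leading genes were those with the smallest p among genes whose arrays do not overlap, so their separation was fixed by the choice. In the higher direction they were led by AHNAK, a giant scaffold protein under the cell membrane. Its signal was 1523, 1375 and 1222 in untreated and 3728, 2157 and 2653 in irradiated IgG replicates 1 to 3, so every irradiated array lay above every untreated one. The difference was 1.01 ± 0.21 (log2(signal + 16), SE, n = 3 a group, 95% interval 0.57 to 1.45, adjusted p = 0.983 by limma). PRKDC encodes the catalytic subunit of DNA-PK, the kinase that holds broken DNA ends for joining. It read 667, 350 and 446 untreated and 1465, 838 and 781 irradiated, a difference of 1.04 ± 0.27. Its lowest irradiated array lay above its highest untreated one, as the choice required. BRCA1, which acts in repair of breaks by homologous recombination, read 423, 386 and 461 untreated and 1023, 682 and 601 irradiated (0.80 ± 0.22). The treatments of both genes were apart by the same choice, and both had an adjusted p of 0.983.

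The other 9 genes of this direction were chosen by the same rule, the smallest p among genes whose arrays do not overlap. HUWE1, a HECT-type ubiquitin ligase, differed by 0.88 ± 0.26, USP9X, a deubiquitinase, by 0.87 ± 0.22, and UBA1, the enzyme that activates ubiquitin, by 0.70 ± 0.19. Signals of USP9X were 3042, 4303 and 3350 untreated and 9372, 5203 and 5518 irradiated. NIPBL, which loads cohesin onto DNA, was at 0.83 ± 0.25, and AHCTF1, a nucleoporin that starts pore assembly on chromatin, at 0.85 ± 0.22. TRIO, an exchange factor for small GTPases, was at 0.84 ± 0.21 and VPS13C, a lipid transfer protein, at 0.94 ± 0.27. DMXL1, a partner of the vacuolar proton pump, had the largest difference of the 12 at 1.11 ± 0.33, and TLR2, a receptor for bacterial lipoproteins, was at 1.06 ± 0.28. TLR2 was among the dimmer ones, with signals of 98.3, 119 and 86.3 untreated and 298, 164 and 235 irradiated.

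In 11 of the 12 the highest array was irradiated replicate 1, the array that stood apart, and UBA1 was the exception. Without that array their differences ran from 0.54 (NIPBL) to 0.87 (TLR2). Of these genes 6 had further probe sets above the filter, 10 in all, and 9 of the 10 were above 0. A second probe set of USP9X was at 0.79, one of PRKDC at 0.94 and one of BRCA1 at 1.19 ± 0.58. That BRCA1 probe set read 5.37 on untreated replicate 2. Those of TRIO were at 0.11, 0.32 and 0.31, and those of NIPBL at 0.89, 0.24 and 0.35. The single one below 0 was a probe set of HUWE1 at -0.13. It is of the kind that may bind other transcripts, as are that of BRCA1 and those of TRIO at 0.11 and 0.31. With the mean of all probe sets of a gene, dim ones included, AHNAK was at 0.23, PRKDC at 0.34, VPS13C at 0.33, HUWE1 at 0.31 and TRIO at -0.18.

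The span of a gene on the chromosome, from the RefSeq table of GRCh38.p14, was known for 7177 of the genes. Its median was 32.3 kb over all genes tested, 62.0 kb over the 185 higher at an unadjusted p under 0.05 and 29.9 kb over the 90 lower. Over all genes, span and difference had a Spearman rank correlation of 0.06, a description across genes, which are not independent replicates. For the eIF4E differences of the same genes it was 0.02.

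The 12 genes in the other direction had a median difference of -0.73, against 0.87 for the 12 above. APOL2, an intracellular apolipoprotein L, was lowest of the 12 at -1.26 ± 0.38 (n = 3 a group, adjusted p = 0.983 by limma). It read 154, 180 and 152 untreated and 23.6, 103 and 69.3 irradiated, so irradiated replicate 1 was near the background level. A second APOL2 probe set was at -0.48. NQO1, a quinone reductase of the antioxidant response, read 8330, 6817 and 5863 untreated and 4584, 5222 and 5183 irradiated (-0.47 ± 0.17). Its other probe sets above the filter were at 0.06 and 0.01, so its probe sets disagreed, and their mean was at -0.14. ZWINT, a kinetochore protein, read 8714, 9458 and 9638 untreated and 5885, 7100 and 7672 irradiated (-0.44 ± 0.16). DUSP7, a phosphatase of MAP kinases, was at -0.58 ± 0.18, with 1657, 1500.4 and 1637 untreated and 905, 1094 and 1215 irradiated.

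The remaining 8 ran from -0.87 to -0.46. MOB1A, an activator of Hippo pathway kinases, was at -0.63 ± 0.21 while its 3 further probe sets were at -0.21, -0.11 and -0.54 and the mean of its probe sets at -0.37. PHLDA2, an imprinted growth regulator, was at -0.46 ± 0.16 and ASAP1, a GTPase-activating protein for Arf, at -0.80 ± 0.22. DIP2A was at -0.86 ± 0.24 and AKR7A3, an aldo-keto reductase whose second probe set was at 0.53 and whose mean of probe sets was at -0.12, at -0.78 ± 0.27. The tested probe sets of both belong to the kind that may bind other transcripts. PABPN1P1 (-0.85 ± 0.26) is a pseudogene of the poly-A binding protein gene PABPN1, so its signal may come from a near-identical copy. PPP4R3B, a subunit of protein phosphatase 4, was at -0.87 ± 0.30 and CACNG4, a calcium channel subunit, at -0.68 ± 0.24. In 11 of these 12 genes, all but CACNG4, the lowest array was irradiated replicate 1. Without it their differences ran from -0.83 (CACNG4) to -0.33 (ZWINT).

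**Figure D2:**
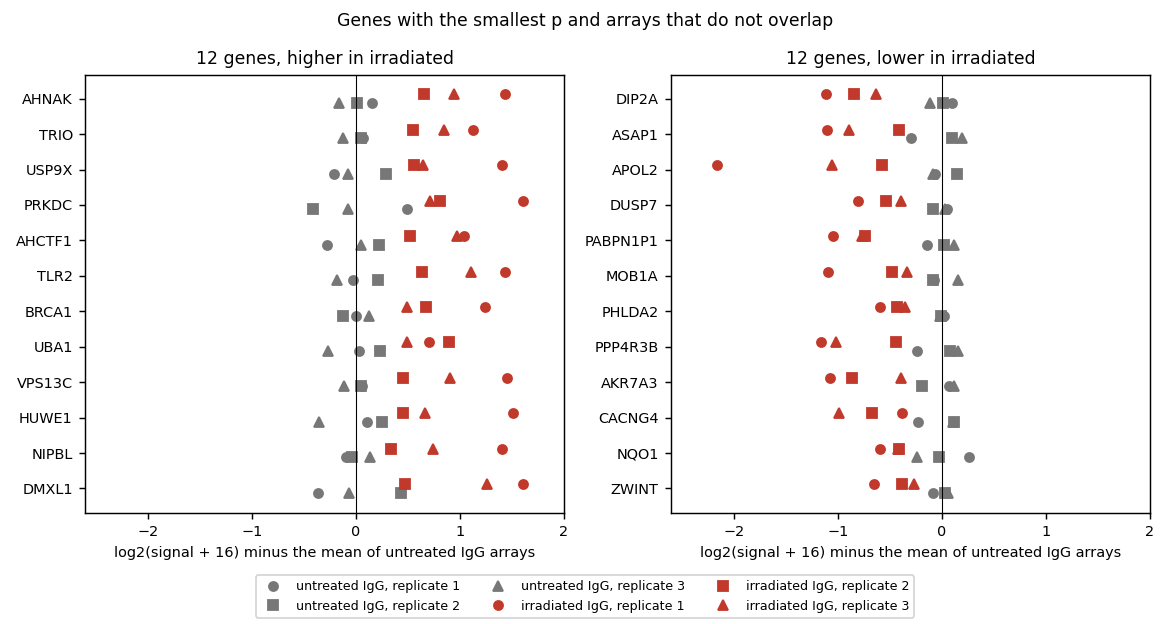
Values of the 24 leading genes on each IgG array, as log2(signal + 16) minus the gene's mean over untreated IgG arrays (grey untreated, red irradiated, 1 marker shape per replicate). Irradiated replicate 1 is the outermost point in 11 of the 12 genes of each panel; the genes were chosen for arrays that do not overlap.

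The same contrast in the eIF4E precipitates used other arrays and gave another set of differences. There too 0 of the 7178 genes passed (0%, smallest adjusted p = 0.994 by limma), with 245 at an unadjusted p under 0.05 (3.41%), 102 higher (1.42%) and 143 lower (1.99%), and 673 without overlap (9.38%). Of the eIF4E differences 3620 (50.4%) were above 0 and 8 (0.111%) reached 2-fold. For the 12 genes higher with IgG the eIF4E difference had a median of 0.01 and ran from -0.35 (NIPBL) to 0.22 (BRCA1), and 6 of 12 had the same sign. For the 12 lower genes the median was -0.02, with 7 of 12 of the same sign and DIP2A at 0.76. AHNAK was at 0.12 ± 0.13 and PRKDC at -0.12 ± 0.20 with eIF4E. The difference between both irradiation effects was tested over all 12 arrays and passed in 0 genes (0%, 226 or 3.15% at an unadjusted p under 0.05, smallest adjusted p = 0.998). Each leading gene had an adjusted p of 0.998 in that test. Over all genes the differences of both precipitates correlated at r = 0.09 (Spearman rank correlation 0.10), a description across genes.

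IgG arrays varied more than eIF4E arrays. The median SD of a gene within a treatment was 0.26 with IgG and 0.18 with eIF4E on the log2 scale, and the median SE of the irradiation difference was 0.22 and 0.15.

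**Figure D3:**
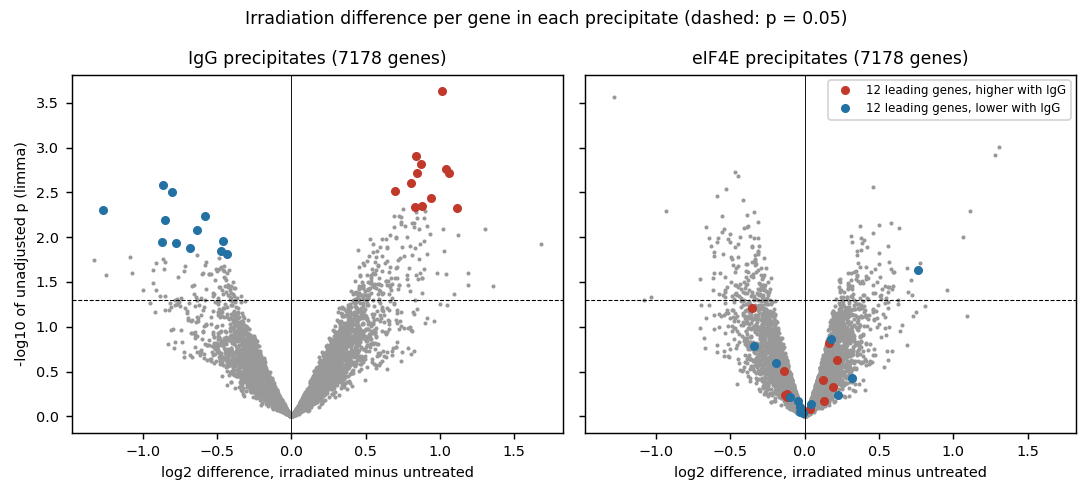
Log2 difference of irradiated minus untreated arrays against -log10 of the unadjusted p for 7178 genes, with IgG on the left and eIF4E on the right. The 12 higher (red) and 12 lower (blue) leading genes of the IgG comparison lie at the edges on the left, where they were chosen, and among the other genes on the right, DIP2A (0.76) apart.

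Genes of break sensing and repair were the first group of the radiation response. Of 39 listed, 32 had a probe set of their own and 29 were tested: 0 passed, 21 were above 0 and 8 below, and the median was 0.15 against 0.004 over all genes tested. At an unadjusted p under 0.05 there were 5, all higher (2.58% of all genes were): PRKDC and BRCA1 (above), BLM, a helicase that resolves recombination intermediates, ATR, the kinase that senses single-stranded DNA, and TP53BP1, which shields broken ends. The last 3 were singled out after their values were seen. All 5 were highest on irradiated replicate 1, the array that stood apart. PRKDC and ATR are also among 123 tested genes of very large proteins, a list written after the leading genes were seen, of which 115 were above 0. BLM read 391, 343 and 377 untreated and 783, 440 and 517 irradiated (0.59 ± 0.23). ATR read 469, 575 and 434 untreated and 1229, 557 and 706 irradiated (0.67 ± 0.26), so its treatments overlapped. Its second probe set was at 1.16 ± 0.27. TP53BP1 read 263, 128 and 303 untreated and 700, 274 and 355 irradiated (0.86 ± 0.34), again with overlap. FANCC, of the Fanconi anaemia core complex, was lowest of the list at -0.29 ± 0.23. Without irradiated replicate 1 the list's median was 0.13, and with eIF4E it was 0.08.

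Targets of p53 and checkpoint genes showed little difference. Of 20 tested p53 targets, 12 were above 0 and 8 below with a median of 0.05. An unadjusted p under 0.05 was reached by 0 of them, against 3.83% of all genes. AEN, a nuclease induced by p53, was highest at 0.32 ± 0.27. CDKN1A, the cell cycle inhibitor, was lowest at -0.29 ± 0.25, with signals of 1029, 538 and 624 untreated and 703, 591 and 449 irradiated that overlapped. MDM2, the ubiquitin ligase of p53, read 144, 53.9 and 58.5 untreated and 111, 67.1 and 78.2 irradiated (0.08 ± 0.38, 95% interval -0.73 to 0.90). The mean of its probe sets was at -0.78. GADD45A, a stress sensor, was at 0.10 ± 0.20. The 17 tested checkpoint genes had a median of 0.02, 10 above 0 and 7 below, from RAD9A, a clamp subunit, at -0.34 ± 0.30 to PKMYT1, an inhibitory kinase of CDK1, at 0.37 ± 0.24. CHEK1, a checkpoint kinase, was at -0.16 ± 0.20.

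Among cell cycle genes, mitosis genes had a median of 0.08, with 28 of 40 tested above 0 and 12 below. At an unadjusted p under 0.05 there were 5, all higher (2.58% of all genes were): MKI67, the proliferation marker, was at 0.59 ± 0.24, TOP2A, topoisomerase II alpha, at 0.56 ± 0.24, CENPF, a kinetochore protein, at 0.56 ± 0.24, TTK, a spindle checkpoint kinase, at 0.48 ± 0.21, and ASPM, a spindle pole protein, at 0.47 ± 0.20. All but MKI67 were singled out after their values were seen, and all 5 were highest on irradiated replicate 1. MKI67, ASPM and CENPF are on the list of very large proteins too. TOP2A read 7517, 6231 and 5517 untreated and 14798, 7708 and 7284 irradiated, so irradiated replicate 1 was far above the rest and irradiated replicate 3 lay below untreated replicate 1. BIRC5, an inhibitor of apoptosis that acts in mitosis, was lowest at -0.39 ± 0.20. The mitotic kinases PLK1 and AURKA were at 0.30 ± 0.31 and -0.11 ± 0.17. CCNB1, the mitotic cyclin, was at 0.06 ± 0.15, with 5735, 6884 and 6654 untreated and 7037, 6749 and 6319 irradiated, and CDC20, an activator of the anaphase-promoting complex, at 0.22 ± 0.23. Without irradiated replicate 1 the median of the list was 0.04.

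DNA replication genes had a median of 0.07, with 36 of 47 tested above 0 and 11 below. In 7 of them (14.9%, against 8.93% of all genes) the arrays did not overlap, each higher after irradiation. MCM3, of the replicative helicase, read 2262, 2055 and 2398 untreated and 3734, 3621 and 2406 irradiated (0.51 ± 0.19), and MCM10, a replication initiation factor, read 600, 627 and 623 untreated and 941, 813 and 811 irradiated (0.46 ± 0.18). POLA1, the catalytic subunit of the primase polymerase, was highest at 0.52 ± 0.23, ORC2, of the origin recognition complex, was at 0.48 ± 0.22 and RFC5, a clamp loader subunit, was lowest at -0.43 ± 0.19. These are the 5 members of 47 with an unadjusted p under 0.05 (3.83% of all genes had one). MCM3, MCM10 and ORC2 were singled out after their values were seen. Without irradiated replicate 1 the median of the list was 0.11. The eIF4E median of the list was 0.06, with 36 of 47 above 0. Replication-dependent histones had 10 tested members, 3 above 0 and 7 below, with a median of -0.12. The linker histone H1-4 was lowest at -0.91 ± 0.35, with 87.5, 140 and 90.2 untreated and 48.7, 35.1 and 62.0 irradiated, and histone copies are near-identical.

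Genes that cells switch on within hours of stress were near 0. Immediate early genes had a median of 0.01 (12 of 23 above 0) and of -0.10 without irradiated replicate 1, from KLF10, a transcription factor, at -0.37 ± 0.18 to CCN2, a matricellular growth factor, at 0.33 ± 0.17. EGR1, ATF3 and MYC, all transcription factors, were at 0.17 ± 0.31, 0.07 ± 0.28 and 0.12 ± 0.19, and EGR1 read 79.8, 79.4 and 82.5 untreated and 76.2, 86.0 and 121 irradiated. FOS and CXCL8 lay under the filter, at signals of at most 39.1 and 28.0. NF-kB targets had a median of -0.02 (7 of 16 above 0). Its inhibitors NFKBIA and TNFAIP3 were at -0.18 ± 0.19 and -0.01 ± 0.27 and the cytokine IL6 at 0.24 ± 0.26. PLAU, the urokinase protease, was at -0.40 ± 0.17 and its arrays did not overlap (6768, 5171 and 5077 untreated, 4796, 3833 and 4164 irradiated). It was the single member of 16 with an unadjusted p under 0.05 (3.83% of all genes had one). RELB, a subunit of NF-kB, was highest at 0.79 ± 0.45 and CXCL2, a chemokine, lowest at -0.43 ± 0.35. Interferon-stimulated genes had a median of 0.01 (17 of 31 above 0), with OASL, an antiviral protein, at 0.39 ± 0.23 and IFIT5, an RNA-binding antiviral protein, at -0.26 ± 0.21.

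Among abundant housekeeping genes, ribosomal protein genes had a median of -0.06 with 18 of 52 above 0, between RPL38 at -0.32 and RPS9 at 0.20. In 0 of the 52 (0%, against 8.93% of all genes) did the arrays stay apart. With eIF4E the median was 0.12 and 45 of 52 were above 0, and the difference between both medians was not tested. Without untreated IgG replicate 1, where these genes were highest, the IgG median was 0.08, and with median centring it was 0.0038. Respiratory chain and ATP synthase genes had a median of 0.01 (32 of 59 above 0), from NDUFA5 at -0.44 to NDUFS1 at 0.37. Translation factors had a median of 0.05 (24 of 42 above 0), and of -0.02 without irradiated replicate 1. EIF3A and EIF4G1, the largest subunit of eIF3 and the scaffold of the cap complex, were at 0.49 ± 0.22 and 0.44 ± 0.20, each with no overlap, and EIF4E itself was at -0.47 ± 0.26 with 1800, 3137 and 2578 untreated and 1235, 2633 and 1676 irradiated. EIF4G1 was singled out after its values were seen. In this list the arrays did not overlap in 2 members higher and 1 lower (7.14%, against 8.93% of all genes). At an unadjusted p under 0.05 there were 2 of the 42, both higher (2.58% of all genes were). EIF4EBP1, the repressor of eIF4E, was at 0.13 ± 0.24. Zinc finger genes had a median of -0.03 (27 of 59 above 0), from ZNF250 at -0.45 to ZNF671 at 0.64.

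Chaperone and unfolded protein genes had a median of 0.09 (18 of 32 above 0), and of 0.00067 without irradiated replicate 1. DDIT3, a transcription factor of endoplasmic reticulum stress, was lowest at -0.64 ± 0.29 (264, 131 and 175 untreated, 91.9, 125 and 121 irradiated), and SDF2L1, a chaperone partner, was highest at 0.34 ± 0.29. Apoptosis genes had a median of 0.002 (15 of 30 above 0), from BNIP3L, a mitochondrial receptor of autophagy, at -0.43 ± 0.17 to XIAP, a caspase inhibitor, at 0.44 ± 0.33. Mesenchymal and matrix genes had a median of 0.17 (21 of 31 above 0), and a median of 0.02 without irradiated replicate 1. At an unadjusted p under 0.05, 4 of the 31 were higher and 1 lower (2.58% and 1.25% of all genes were). ITGA3, an integrin subunit, was highest at 0.89 ± 0.28, with 341, 248 and 165 untreated and 606, 484 and 335 irradiated, which overlapped. PLAU (above) is on this list too and was lowest at -0.40 ± 0.17. COL4A2, a basement membrane collagen singled out after its values were seen, was at 0.80 ± 0.35. It read 1594 on irradiated replicate 1 and at most 595 on every other IgG array. Luminal epithelial genes had a median of 0.02 (7 of 14 above 0) and of -0.11 without irradiated replicate 1, from CLDN7 at -0.40 to MUC1 at 0.61. The 5 tested genes of the leukocyte list lay between PRF1 at -0.20 and HBB at 0.41. HBB encodes a haemoglobin chain of red cells. The list had a median of -0.12, and of 0.17 without irradiated replicate 1.

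**Figure D4:**
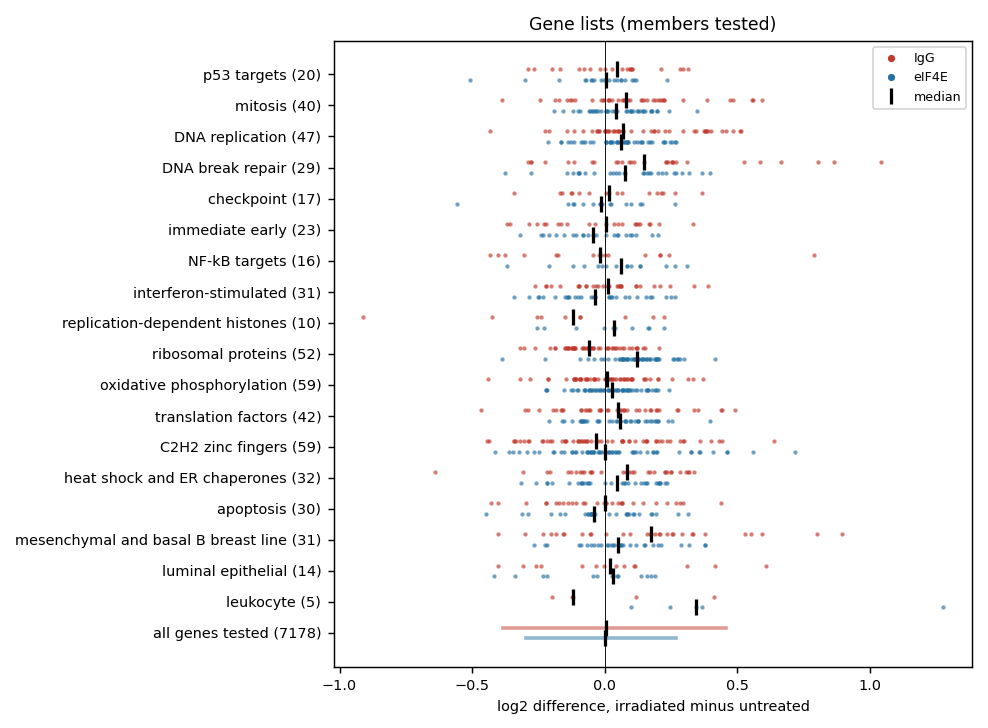
Log2 difference of irradiated minus untreated arrays for each tested member of 18 gene lists, in red for IgG and in blue for eIF4E, with black bars for medians and, in the last row, lines from the 5th to the 95th percentile of all 7178 genes. The IgG medians lie between -0.12 and 0.17.

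Reference genes showed the scale of the spread. ACTB read 15443, 12707 and 11778 untreated and 13796, 23983 and 10346 irradiated (0.19 ± 0.24), with irradiated replicate 2 highest. GAPDH read 25120, 16415 and 16294 untreated and 25508, 21001 and 17385 irradiated (0.16 ± 0.20), with replicate 1 highest in both treatments. H2AX, the histone variant phosphorylated at breaks, was at -0.05 ± 0.17 with 6057, 5278 and 5154 untreated and 5082, 6498 and 4505 irradiated. Of the genes of the radiation response and reference set, 20 were tested, FOS and CXCL8 lay under the filter, and BTG2 had no probe set of its own. Of the 20, BRCA1 was the one whose 95% interval did not hold 0.

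**Figure D5:**
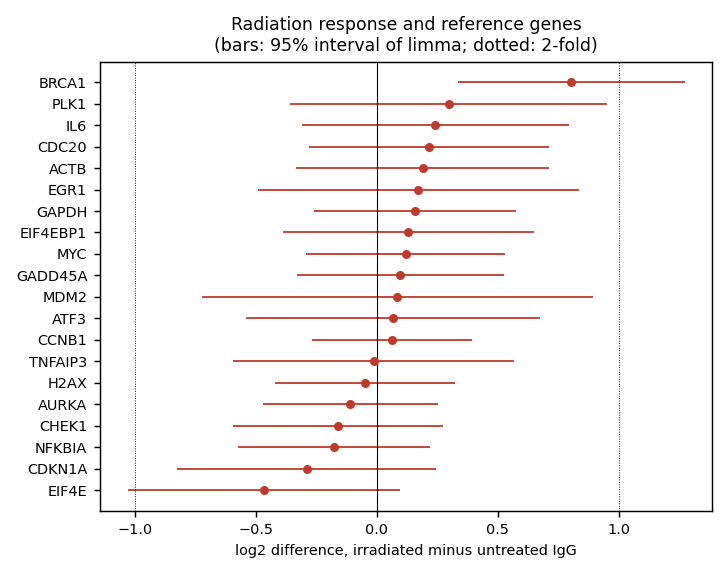
Log2 difference of irradiated minus untreated IgG arrays with its 95% interval from limma for 20 genes, with dotted lines at a 2-fold change (n = 3 a group). The interval of BRCA1 (0.33 to 1.27) lies above 0, and those of the other 19 hold 0.

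When all 22215 non-control probe sets were tested one by one with no filter, 0 passed (0%, smallest adjusted p = 0.976 by limma), 1008 (4.54%) had an unadjusted p under 0.05, of which 467 were higher (2.1%), and 2138 (9.62%) did not overlap. The smallest p was that of AHNAK. Of the 5 smallest in each direction, only AHNAK and ATR were above the filter. The second ATR probe set read 123, 120 and 134 untreated and 366, 225 and 326 irradiated. A dim probe set of MDM2 was among the lowest at -1.63 ± 0.38, with 41.0, 22.9 and 63.2 untreated and 1.99, 3.07 and 1.14 irradiated. The brighter MDM2 probe set given above was at 0.08. Of the other dim ones, H1-1, a linker histone, was at -1.71, LRRN2 at -1.88, GPR107 at 1.88 and CCDC106 at 1.67. The remaining 3 were not assigned to a single gene. Each of these dim probe sets had 1 treatment with all signals under 35.8, the highest array median of the genes of other tissues.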

How the data were processed

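Values were the deposited linear intensity of every probe set on each array, which the authors made with MAS5, per the submitters' processing notes. Its version, settings and annotation build are not given in the sources used here. Of 22277 probe sets, 62 were controls. Gene symbols came from the platform annotation (19064 probe sets with 1 gene) and were brought to current RefSeq symbols through gene identifiers (19052 matched; GRCh38.p14), used for names and gene spans only. Each gene was represented by its probe set with the highest mean over the IgG arrays, with _x_at probe sets as a last resort. Genes dimmer than the 40th percentile, a signal of 56.1, were not tested.

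Differences were fitted on log2(signal + 16) with limma 3.58.1 in R 4.3.3 (lmFit, eBayes with a trend, Benjamini-Hochberg, threshold 0.05), over the 6 IgG arrays alone, since they vary more than the eIF4E arrays. Fold changes on this scale understate those of dim genes. The number of arrays and the spread between them limit the precision. The test of the difference between both precipitates used all 12 arrays. Named genes were, in each direction, the 12 with the smallest p and arrays that do not overlap (0 passed the threshold), 24 fixed genes and both ends of each list, with 5 probe sets in each direction. Lists were counted, not tested. The members and lists were chosen with earlier results of these data known. Scripts were tested on simulated data. Alternatives were pseudocounts of 1 and 64, other filters, quantile normalization, median centring, no trend, array weights, the replicate block, all 12 arrays in 1 fit, probe set means and omitted arrays. Figures were drawn with matplotlib 3.10.9.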

Additional observations from a re-analysis of the deposited data

How the results depend on the processing

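The count of 0 genes past the threshold was the same under all 19 alternatives for IgG, and also for eIF4E and for the difference between both where they were refitted. The smallest adjusted p of the IgG genes ran from 0.568 to 1.00 with each array left out in turn, and was 0.258 in the fit over all 12 arrays and 0.195 with array weights. With the replicate number as a block 0 genes passed, the smallest adjusted p was 0.115 and 427 genes had an unadjusted p under 0.05, against 275. Deviations of same-numbered arrays correlated at 0.27, -0.02 and 0.15. The labels do not say whether same numbers share a batch, and the main fit took no pairs. The bioB to bioC ratio set replicate 1 of every group apart, eIF4E included (0.373 to 0.443, against 0.0269 to 0.0523 elsewhere). Poly-A control signals with IgG were 2493 and 2130 in replicate 1 and 994 to 1369 in the rest. Whether the numbers mark a batch was not tested. The precision of 3 arrays a group and the low signal of dim genes limit what could be detected. Of the 24 leading genes only TRIO changed sign, at -0.18 with the mean of probe sets. That setting also put AHNAK at 0.23, PRKDC at 0.34, VPS13C at 0.33, HUWE1 at 0.31, MOB1A at -0.37, PHLDA2 at -0.27, AKR7A3 at -0.12 and NQO1 at -0.14. Without both first arrays USP9X was at 0.50, NIPBL at 0.50, DMXL1 at 0.68 and NQO1 at -0.28, without irradiated replicate 1 HUWE1 was at 0.56, NIPBL at 0.54, APOL2 at -0.82 and MOB1A at -0.41, and with probe sets chosen on all 12 arrays, an alternative added after the data were seen, MOB1A was at -0.11. Further named genes changed sign, among them HBB, RAD9A, SDF2L1 and PLK1, which were at 0.41, -0.34, 0.34 and 0.30, and the cause was not tested. Quantile normalization put TNFAIP3 at 0.0013. Median centring put TNFAIP3 at 0.051 and H2AX at 0.015. Array weights put CCNB1 at -0.0072, TNFAIP3 at 0.055 and PRF1 at 0.081. The mean of probe sets put MDM2 at -0.78, H2AX at 0.0066, TNFAIP3 at 0.19 and HBB at -0.018. Without both first arrays PLK1 was at -0.0091, CCNB1 at -0.051, H2AX at 0.053, ATF3 at -0.011, TNFAIP3 at 0.13 and PRF1 at 0.35. With each array left out in turn, GADD45A ran from -0.031 to 0.24, MDM2 from -0.13 to 0.47, CCNB1 from -0.016 to 0.12, CDC20 from -0.052 to 0.38, AURKA from -0.21 to 0.033 and CHEK1 from -0.32 to 0.014. H2AX ran from -0.20 to 0.068, ATF3 from -0.061 to 0.22, TNFAIP3 from -0.10 to 0.11, MYC from -0.044 to 0.26 and EIF4EBP1 from -0.083 to 0.39. ACTB ran from -0.15 to 0.46, RAD9A from -0.58 to 0.027, SDF2L1 from -0.087 to 0.60 and PRF1 from -0.46 to 0.17.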

Other observations

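Many of the genes with the smallest p in the higher direction encode very large proteins. A list of 183 genes of very large proteins was therefore written from general knowledge after those genes were seen, so it is a description and was not tested. Of its members 123 were bright enough, 0 passed the threshold, 115 were above 0 and 8 below, and the median was 0.45 on the log2 scale, where all 7178 genes had a median of 0.004 and 50.6% above 0. At an unadjusted p under 0.05 there were 46, all higher, of the 185 such genes in the whole table, and the arrays did not overlap in 36 (29.3%, against 8.93% of all genes). Among the 114 members outside the 12 leading genes 106 were above 0, with a median of 0.43. PCNT, a scaffold of the centrosome, was at 0.90, FAT1, a giant cadherin, at 0.86, HERC2, a ubiquitin ligase, at 0.86, SPTBN1, a spectrin of the membrane skeleton, at 0.74, and DYNC1H1, the dynein heavy chain, at 0.80. HTT, huntingtin, was highest at 1.36, with a signal of 9.08 on untreated replicate 3 against 131 to 316 on the other 5 IgG arrays. These 6 were singled out after their values were seen.

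With eIF4E the same list had a median of -0.01, 61 above 0 and 62 below. Relative to each gene's mean over the IgG arrays, the median of the list was -0.24, -0.06 and -0.45 on untreated IgG replicates 1 to 3 and 0.66, -0.05 and 0.17 on the irradiated ones. Irradiated replicate 1 was thus highest and untreated replicate 3 lowest, and replicate 2 of both treatments differed by 0.02. Without irradiated replicate 1 the median was 0.30 and 104 of 123 were above 0, against 54.7% of all genes. Higher at an unadjusted p under 0.05 were 25 of the 123, against 107 of all 7178 genes. Over the alternatives the median of the list ran from 0.30 to 0.63. The actin 3'/5' ratio was 5.38 on irradiated replicate 1 and 2.96 on untreated replicate 3, the highest and the lowest of the IgG arrays, and 5.00 on irradiated replicate 2. Its part in the result was not tested.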
